A study of Mus musculus with 6 samples.

Results

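Schlafen genes form a family that, in the mouse, sits mostly in a cluster on chromosome 11. The 7 members described here are Slfn1, Slfn2, Slfn3, Slfn4, Slfn5, Slfn8 and Slfn9. They were chosen by name from that cluster and not by a rule on measured values, but with earlier results of these data known. They are 7 of 35297 genes in the tables, and 5 of the 7 had reads, against 18894 of all genes. BMMCs (bone marrow-derived mast cells, cultured with stem cell factor, TGF-β1, IL-9 and IL-3) were compared on day 20 of culture. The donors were untreated wild-type mice of the BALB/c or the C57BL/6 strain. There were 3 BALB/c libraries (S9, S10 and S11) and 3 C57BL/6 libraries (S12, S13 and S14), all unstimulated as far as the labels state. The study describes the libraries of a strain as biological replicates from cultures. The age of the donor mice and the number of animals behind the libraries are not given in the sources used here, so p-values measure the spread between these libraries.

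Schlafen proteins are grouped by length. Slfn1 and Slfn2 are the shortest, Slfn3 and Slfn4 are intermediate, and Slfn5, Slfn8, Slfn9, Slfn10 and Slfn14 are long and carry a helicase-like part at their end. The shared core of these proteins resembles a fold that binds nucleic acid, and several members are known to bind or cut tRNA. The genes are known targets of type I interferon, a signal that runs from its receptor through the kinases Jak1 and Tyk2 to transcription factors in the nucleus. They were first described in thymocytes, where Slfn1 restrained growth, and Slfn2 is known for keeping T cells and monocytes in a resting state.

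Levels are given on 2 scales. Estimated reads per gene are given as CPM (counts scaled to a common library size) after correction of library size with TMM factors, and are compared between strains. TPM divides reads by transcript length and is used to compare levels between genes. Between 28273365 and 37100869 reads per library were assigned to genes. For the strain comparison, 12461 genes with enough reads were tested with edgeR's quasi-likelihood test and Benjamini-Hochberg adjustment. The thresholds were an adjusted p under 0.05 together with a fold change above 2, and the adjusted p alone. A positive log2 fold change means higher in C57BL/6.

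On chromosome 11 of GRCm39, GENCODE places the 7 genes within 267002 bases, from 82842100 to 83109101, all of them protein-coding. Slfn5 (82842100 to 82855666, + strand) lies at the low end, followed by Slfn9 (82868552 to 82882656, − strand) and Slfn8 (82892984 to 82911669, − strand). Slfn2 (82955609 to 82961504, + strand), Slfn1 (83007615 to 83013496, + strand), Slfn4 (83066012 to 83081042, + strand) and Slfn3 (83082123 to 83109101, + strand) follow. Slfn10 (82918956 to 82958140, − strand) lies between Slfn8 and Slfn2 and overlaps the start of Slfn2 on the opposite strand. RefSeq names it Slfn10-ps and GENCODE lists it as protein-coding. The libraries were made with a kit that keeps the strand, but whether strand was used in assigning reads is not given in the sources used here.

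The sequences before the RefSeq starts of Slfn9, Slfn8 and Slfn5 are shown because these windows held the letters of the interferon response element core, GAAANNGAA, on either strand. They are parts of the 250 bases before each RefSeq start, cut where GENCODE exons begin, taken from RefSeq's table of GRCm38.p6 and found at the given place in GRCm39 by exact match. Each is written 5′ to 3′ on the strand of its gene, and capitals mark the core. GENCODE starts Slfn5 further upstream, so that all 250 bases of its window lie inside the GENCODE spans of Slfn5 and, on the other strand, Slfn5os. The Slfn8 and Slfn9 windows lie wholly inside the GENCODE spans of Gm74280 and Gm74281, outside the exons of these genes.
Slfn9, chr11:82882657-82882906, − strand: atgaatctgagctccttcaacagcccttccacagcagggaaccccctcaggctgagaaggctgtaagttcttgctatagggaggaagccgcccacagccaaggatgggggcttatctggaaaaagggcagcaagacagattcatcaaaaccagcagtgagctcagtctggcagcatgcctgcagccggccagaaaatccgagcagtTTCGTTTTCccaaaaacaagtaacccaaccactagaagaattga
Slfn8, upstream start, chr11:82911670-82911886, − strand: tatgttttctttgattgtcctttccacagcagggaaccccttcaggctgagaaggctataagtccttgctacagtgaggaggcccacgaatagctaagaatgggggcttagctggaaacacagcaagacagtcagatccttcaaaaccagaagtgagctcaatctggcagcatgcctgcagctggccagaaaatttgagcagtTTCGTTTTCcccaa
Slfn5, chr11:82842678-82842810, + strand: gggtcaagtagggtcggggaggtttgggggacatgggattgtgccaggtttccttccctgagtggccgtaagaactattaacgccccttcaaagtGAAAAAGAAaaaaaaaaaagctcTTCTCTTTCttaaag

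All 7 members had an entry in the promoter table, and 3 of the 7 (Slfn5, Slfn8 and Slfn9) held the core within 250 bases of a start. Of all 32851 promoters in the table, 7.13% held it in a window of the same length. Slfn9 and Slfn8 carried the same 9 letters on the − strand relative to transcription, at position −44 from the Slfn9 start and −47 from the upstream Slfn8 start, and their windows shared a longest exact run of 20 bases elsewhere. The bases next to the core on each side were also the same in both windows, so these matches are not independent. Slfn5 held the core in each orientation, at positions −155 and −132 from its start. The windows of Slfn1, Slfn2, Slfn3 and Slfn4 did not contain these letters. All 250 bases of the Slfn2 window lie in a GENCODE exon of Slfn2, which starts further upstream than in RefSeq, so the sequence before that start was not searched. The STAT site letters TTCNNNGAA were in the window of 0 of the 7 members and in 7.02% of all promoters, and the GATA site letters AGATAA were in the window of Slfn9 and in 9.99% of all promoters. Core matches did not overlap the GATA match in Slfn9. A match of letters is a description and does not show a bound site.

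In these mast cells the family was represented, by TPM, mainly by Slfn2, with Slfn9 and Slfn3 next, Slfn8 and Slfn5 low, and Slfn1 and Slfn4 at 0 reads. Between the strains the genes moved in opposite directions. Slfn2 was higher in C57BL/6, Slfn9 and Slfn5 were higher in BALB/c, and Slfn3 and Slfn8 did not pass the test. By adjusted p alone, 1 member was higher and 2 were lower in C57BL/6 among the 5 tested. Over all genes tested, 27.0% were higher and 25.9% lower by that rule, so shares of this kind are common in the comparison. In edgeR's test 0 of the 5 passed both thresholds in either direction, where 7.73% of all genes were higher and 5.54% lower. DESeq2 also gave 0, and 4 of the 5 had an unadjusted p under 0.05, as did 58.2% of all genes tested. Groups did not overlap in CPM for 3 of the 5, against 61.9% of all genes tested. In bulk RNA, a change in the share of cells that express a gene and a change in RNA per cell cannot be told apart.

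**Figure D1:**
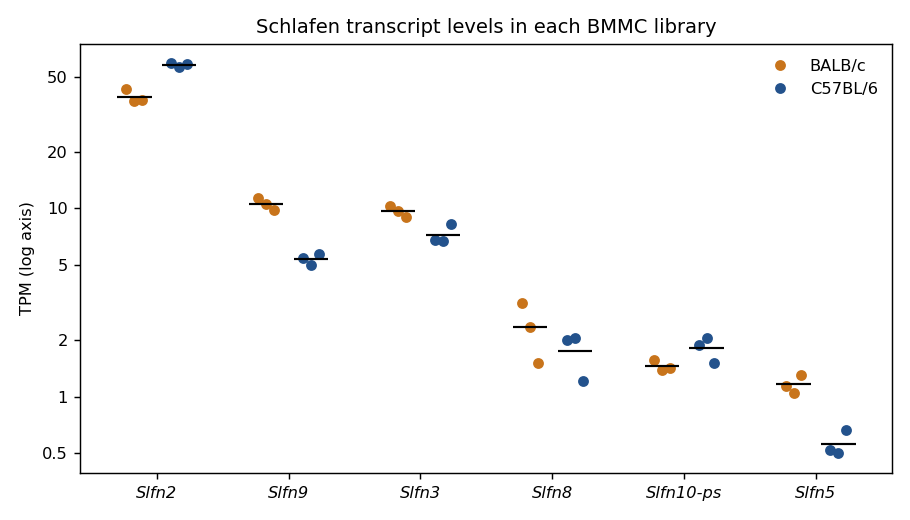
TPM on a log axis for each library of BALB/c (orange) and C57BL/6 (blue), with the mean of 3 libraries as a line, for the 5 members with reads and Slfn10-ps. Slfn2 stood highest in all 6 libraries. In TPM the strains did not overlap for Slfn2, Slfn9, Slfn3 and Slfn5, but in CPM they did for Slfn3. The share of all genes without overlap in TPM was not counted.

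Slfn2, the short member known from resting T cells, had the highest TPM. By reads, not divided by length, Slfn9 was above it in BALB/c. It had 1412, 1157 and 1513 reads in S9, S10 and S11 and 2192, 1856 and 2443 in S12, S13 and S14. Its TPM was 42.9, 37.1 and 37.8 in BALB/c against 59.0, 56.4 and 58.4 in C57BL/6. All C57BL/6 libraries lay above all BALB/c libraries, and within C57BL/6 they were close together. Mean CPM in BALB/c was 41.1 ± 2.87, while in C57BL/6 it was 68.7 ± 0.239 (SD, n = 3 each). The log2 fold change was 0.74 with an SE of 0.0516 and an adjusted p of 3.435e-06 (edgeR), which is 1.67-fold. All reads of Slfn2 were on its only transcript with reads, NM_011408.1 (1684 bases).

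Slfn9, a long member, went the other way. Its CPM was 61.7, 65.5 and 60.8 in BALB/c against 36.0, 35.3 and 37.7 in C57BL/6. Every BALB/c library lay far above every C57BL/6 library relative to the spread within a strain. The means were 62.7 ± 2.51 and 36.3 ± 1.26 (SD, n = 3 each). The log2 fold change was −0.78 with an SE of 0.0468 and an adjusted p of 1.354e-06 (edgeR), 1.72-fold higher in BALB/c. In TPM, which takes its long transcripts into account, Slfn9 stood at 11.4, 10.5 and 9.82 in BALB/c and at 5.44, 5.0 and 5.72 in C57BL/6.

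The reads of Slfn9 fell on a pair of transcripts, and most were on the longer. The predicted model XM_006533235.5 is 10874 bases long, longer than the longest GENCODE transcript of Slfn9 (6549 bases). It held 1569, 1735 and 1993 reads in BALB/c against 991, 829 and 1131 in C57BL/6. The curated NM_172796.2 (3856 bases) held 395, 217 and 293 reads in BALB/c against 160, 125 and 204 in C57BL/6. The longer model therefore took between 79.9% and 88.9% of Slfn9 reads in BALB/c and between 84.7% and 86.9% in C57BL/6, and these ranges overlap. The mean shares were 85.3% ± 4.78 and 85.9% ± 1.11 (SD, n = 3 each), with a two-sided exact permutation p of 1, in a design where the smallest p is 0.1. Both transcripts were lower in every C57BL/6 library than in any BALB/c library. Fitted over 31918 transcripts with edgeR, the longer model had a log2 fold change of −0.80 (SE 0.0715, adjusted p = 0.002305) and the curated transcript −0.85 (SE 0.263, adjusted p = 0.11). Of all transcripts tested, 7.17% were higher and 6.42% lower by adjusted p, and 3.64% and 2.68% also passed the fold threshold. Slfn2's transcript was the other member transcript called, at 0.72 (SE 0.055, adjusted p = 0.001441).

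Slfn3, of intermediate length, was close to Slfn9 in TPM but had far fewer reads. It had 373, 334 and 397 reads in BALB/c against 279, 244 and 381 in C57BL/6. In CPM these were 11.7, 11.2 and 10.6 against 8.73, 9.02 and 10.8, so that S14 reached into the BALB/c range. The log2 fold change was −0.23 with an SE of 0.1 and an adjusted p of 0.08495 (edgeR), which did not pass. Without S14 it was −0.33, and the adjusted p was 0.02498. In TPM the strains did not overlap, with 10.3, 9.70 and 8.98 in BALB/c against 6.81, 6.71 and 8.27 in C57BL/6. TPM sets every library to the same total and moved the median of all tested genes down by 0.15 in C57BL/6 on the log2(TPM + 1) scale, on which Slfn3 differed by −0.37 in limma. Relative to that median the difference was −0.22. All Slfn3 reads were on NM_011409.1 (1834 bases).

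In TPM, the order of Slfn9 and Slfn3 was not the same in the strains. In BALB/c, Slfn9 was above Slfn3 in each library, by a log2 ratio of TPM of 0.15, 0.11 and 0.13. In C57BL/6, Slfn9 was below Slfn3 in each library, by −0.32, −0.42 and −0.53. The mean log2 ratio was 0.13 ± 0.0193 in BALB/c and −0.43 ± 0.103 in C57BL/6 (SD, n = 3 each), with a two-sided exact permutation p of 0.1, the smallest that 3 against 3 libraries allow. This ratio is taken within a library and does not depend on library size, but its sign depends on the transcript lengths used. Slfn9 was counted mostly on the predicted model of 10874 bases, and Slfn3 on a transcript of 1834 bases, while its longest GENCODE transcript has 5137. By reads Slfn9 was above Slfn3 in all 6 libraries, with 1953 to 2286 reads in BALB/c libraries and 954 to 1335 in those of C57BL/6. The BALB/c TPM ranges of Slfn9 and Slfn3 overlapped across libraries (9.82 to 11.4 and 8.98 to 10.3).

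Slfn8 and Slfn5, the other long members, were low. Slfn8 had 267, 185 and 150 reads in BALB/c against 192, 174 and 131 in C57BL/6. The strains overlapped, and the libraries of a strain differed from each other more than the strains did. Mean CPM was 6.19 ± 2.20 in BALB/c and 5.38 ± 1.47 in C57BL/6 (SD, n = 3 each). The log2 fold change was −0.21 with an SE of 0.279 and an adjusted p of 0.564 (edgeR). It lay between −0.45 and 0.08 when 1 library was left out, so its direction was not settled. Most Slfn8 reads were on NM_181545.4 (4011 bases). The other transcript, NM_001167743.1, had 14 reads in S10, 19.6 in S11 and 0 in the other libraries.

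Slfn5, known as an interferon-induced nuclear protein, had 147, 127 and 206 reads in BALB/c against 78, 64 and 109 in C57BL/6. Its CPM was 4.62, 4.26 and 5.48 in BALB/c against 2.44, 2.37 and 3.08 in C57BL/6, with no overlap. The log2 fold change was −0.86 with an SE of 0.156 and an adjusted p of 0.001445 (edgeR), 1.82-fold higher in BALB/c. In S12 all Slfn5 reads were assigned to the predicted XM_006533580.3 (6219 bases), and in the other libraries all were on the curated NM_183201.4 (5989 bases). With curated transcripts alone, S12 therefore has 0 reads for Slfn5, and the gene's log2 fold change was −1.39 with an adjusted p of 0.3328. The call thus rests on the sum over transcripts.

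**Figure D2:**
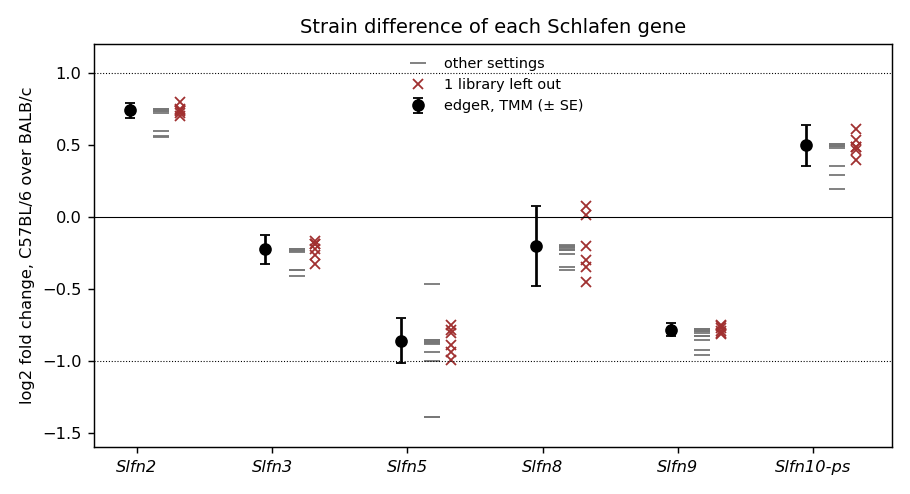
Difference between strains (log2 fold change, C57BL/6 relative to BALB/c) of each Schlafen gene with reads. Black points are the edgeR values with SE, grey bars the other settings, red crosses the fits with 1 library left out, and dotted lines a 2-fold change. Slfn2 stayed above 0 and Slfn9 and Slfn5 below 0 in all settings shown, and Slfn8 spanned 0.

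Slfn1, the founding member, and Slfn4, known from macrophages and other myeloid cells, had 0 reads in all 6 libraries. Slfn4 had 6 transcripts in the tables. A count of 0 allows up to 3 reads per library, which is between 0.0798 and 0.111 CPM. In TPM this is between 0.0621 and 0.0832 for Slfn1 and between 0.0288 and 0.0385 for Slfn4, on their shortest curated transcripts and for counting error only. Slfn2 was at least 445.5-fold higher than this limit of Slfn1 in each library. Of the other 4 family genes, Slfn14, a ribosome-associated nuclease known from platelet and red cell precursors, had 1 read in S11 and 0 elsewhere, as did the schlafen-like gene Slfnl1 on chromosome 4. Slfn5os, a non-coding RNA opposite Slfn5, had 0 reads in all 6 libraries.

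Slfn10-ps was the fourth-ranked family gene in C57BL/6 by mean TPM. It had 115, 98 and 127 reads in BALB/c against 157, 151 and 144 in C57BL/6. Its log2 fold change was 0.50 with an SE of 0.141 and an adjusted p of 0.01572 (edgeR). CPM did not overlap between the strains (3.29 to 3.61 in BALB/c and 4.07 to 5.58 in C57BL/6), but TPM did (1.39 to 1.56 and 1.51 to 2.04). The call was lost in 5 of 19 alternatives, among them without S13 (0.39, adjusted p = 0.05902). In its TPM level Slfn10-ps could not be separated from Slfn8 in C57BL/6, where their log2 ratio lay between −0.31 and 0.08.

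Slfn8, Slfn9 and Slfn10 share sequence, which matters because Salmon splits reads that fit several transcripts. Of the words of 31 bases in GENCODE's transcripts, 19.0% of those of Slfn8 were also in Slfn9, 18.6% of those of Slfn8 in Slfn10, and 12% of those of Slfn9 in Slfn8. Slfn4 shared 11.7% of its words with Slfn3, and Slfn2 shared 5.81% with Slfn4. The values of Slfn8 and Slfn10-ps are therefore uncertain in how reads were divided. With the reads of Slfn8, Slfn9 and Slfn10-ps summed, CPM was 73.7, 75.0 and 68.2 in BALB/c against 47.0, 47.2 and 45.5 in C57BL/6. The sum had a log2 fold change of −0.63 (SE 0.0463, adjusted p = 4.677e-06, edgeR). Most of the reads in the sum are those of Slfn9.

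The make-up of the family differed between the strains. The summed TPM of the 7 members was 68.9, 60.7 and 59.4 in BALB/c against 73.7, 70.6 and 74.3 in C57BL/6. Slfn2 made up 62.3%, 61.1% and 63.6% of it in BALB/c and 79.98%, 79.8% and 78.6% in C57BL/6. The shares of Slfn9 were between 16.5% and 17.3% in BALB/c, and between 7.09% and 7.70% in C57BL/6. Those of Slfn3 were between 14.9% and 16.0% in BALB/c, and between 9.23% and 11.1% in C57BL/6. Slfn5 held between 1.65% and 2.20% in BALB/c, and between 0.703% and 0.894% in C57BL/6. For these 4 shares the strains did not overlap (two-sided exact permutation p = 0.1 each, the smallest possible, unadjusted for the 5 shares compared). The share of Slfn8 overlapped (2.53% to 4.55% and 1.64% to 2.88%, exact permutation p = 0.3). As shares sum to 100%, a rise of Slfn2 lowers the others. The order of the shares depends on the transcript lengths. Of the members' reads, not divided by length, Slfn9 held the largest share in BALB/c (47.2% to 52.0%, with Slfn2 at 30.8% to 33.9%), and Slfn2 did in C57BL/6 (55.5% to 56.4%, with Slfn9 at 29.0% to 30.3%). By reads, too, Slfn2 had a larger share in C57BL/6, and Slfn9, Slfn3 and Slfn5 a smaller one, with no overlap.

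**Figure D3:**
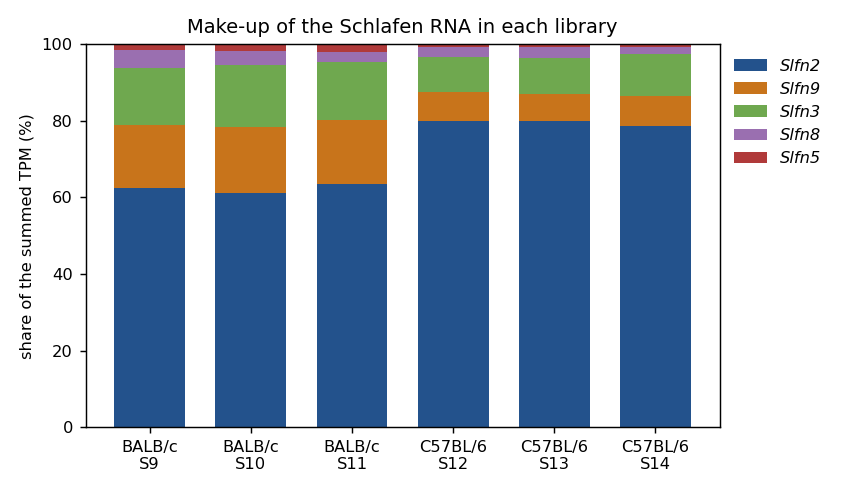
Stacked bars of each member's share of the summed Schlafen TPM (percent) in each library, for the 5 members with reads. Slfn2 took from 61.1% to 63.6% in BALB/c and from 78.6% to 79.98% in C57BL/6.

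Genes of the interferon pathway were counted in the same fit. The list of 50 held receptors and signalling genes, regulators and targets, and 41 were tested. By both thresholds 10 were higher and 1 was lower in C57BL/6, against 7.73% and 5.54% of all genes tested. By adjusted p alone 26 were higher and 5 lower, against 27.0% and 25.9% of all genes, and 10 did not pass. The median log2 fold change was 0.407, against −0.0073 over all genes tested. These genes and the Schlafen genes were measured in the same libraries, and earlier results of these data were known when the list was drawn up. Some markers of other myeloid cells were also higher in C57BL/6, among them Adgre1 (4.93), Cd68 (2.01), Itgax (2.21) and Cebpa (6.53). Other markers of such cells were not, as Csf1r, C1qa, C1qb, C1qc and Siglech had 0 reads and Il18r1 was lower (−0.54). The part of such cells in the values of the interferon list was not tested.

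Among receptors and signalling genes, Ifngr2, a chain of the interferon gamma receptor, was at 1.02 (adjusted p = 0.03284) with at most 20 reads per library. Irf9, a transcription factor of the type I response, was higher by 0.21 (SE 0.0443, adjusted p = 0.003324). Stat2, named after its values were seen, fell by 0.34 on the log2 scale (adjusted p = 0.008404). It was the lower one of this role, in which 5 of 10 genes were higher and 1 was lower by adjusted p. Over all genes tested these shares were 27.0% and 25.9%. Among regulators, Irf8 was higher by 4.99 (from a mean of 0.175 ± 0.175 to 5.58 ± 0.841 CPM) and Irf5 by 2.55 (from 2.15 ± 0.282 to 12.6 ± 0.660 CPM), each n = 3 per strain. Irf7, the factor that amplifies the response, was at 0.17 (adjusted p = 0.3504).

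Of 32 targets, 23 were tested, and 18 were higher and 3 lower by adjusted p, against 27.0% and 25.9% of all genes tested. Against a median of −0.0073 over all genes tested, the median of the tested targets was 0.619. The largest rises among those past both thresholds were in Zbp1, a sensor of Z-form nucleic acid (4.36), Rsad2, which encodes the antiviral enzyme viperin (3.31), and Cmpk2 (2.81). Zbp1 and Cmpk2 had few reads, at most 33 and 31 in a library, as did Oas3, with at most 24. Oas3 (1.60), Ifih1 (1.58), Gbp3 (1.49) and Gbp2 (1.31) followed, and Ifit2 fell by 1.17. Isg15, a ubiquitin-like target, was at 0.78 (SE 0.287, adjusted p = 0.04547) and its mean CPM was 0.510 ± 0.0914 for BALB/c and 0.887 ± 0.211 for C57BL/6. Ifit3 and Ifi44 had 0 reads in all libraries, and Mx1 had at most 2. Slfn2 was thus higher in the strain in which most tested targets were higher, and Slfn5 and Slfn9 were lower in it, as were Ifit2, Oasl1 (−0.70) and Igtp (−0.86).

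**Figure D4:**
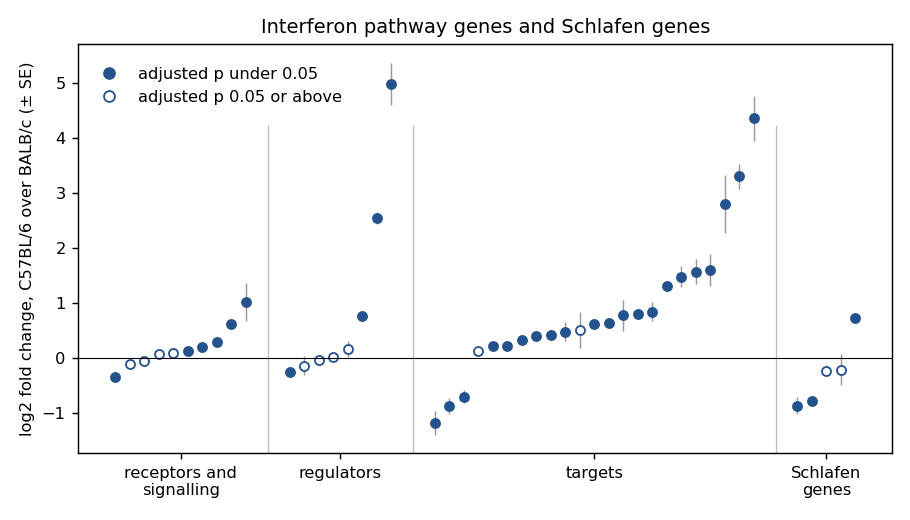
Log2 fold change with SE of each tested interferon pathway gene by role, and of the 5 Schlafen genes tested, in rising order within each group. Filled points passed an adjusted p of 0.05. Targets lay mostly above 0, with 3 called below it, while the Schlafen genes had 1 called above 0 and 2 below.

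Genes of tRNA biology were taken as another list, because Slfn2 is known to bind tRNA and to shield it from the nuclease angiogenin. All 16 were tested, 4 were higher and 4 lower in C57BL/6 by adjusted p, shares near the 27.0% and 25.9% of all genes tested, and the median log2 fold change was −0.0446. Ang, which encodes angiogenin, was the member past both thresholds, at 2.79 (SE 0.4, adjusted p = 0.0003503). It was scarce, at 0.0923 ± 0.0373 CPM in BALB/c libraries and 0.657 ± 0.136 CPM in those of C57BL/6 (SD, n = 3 each) and at most 22 reads in a library. Its inhibitor Rnh1 was higher by 0.23 (SE 0.0386, adjusted p = 0.001016), with means of 127.6 ± 3.51 and 149.3 ± 3.01 CPM. Rnh1 was named for its role after its values were seen.

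The 20 nearest genes with reads around the cluster, 10 on each side, were read in the same fit. Of the 14 tested, 0 were higher and 5 lower by adjusted p, against 27.0% and 25.9% of all genes tested, and 9 did not pass. By both thresholds 1 was lower, against 5.54% of all genes tested. The neighbour past both thresholds was Tmem132e, the ninth gene before the cluster, which fell from 4.37 ± 0.897 to 0.287 ± 0.0786 CPM (log2 fold change −3.91, adjusted p = 3.003e-06). The other 4, named after their values were seen, were Zfp830 (−0.24), Lig3 (−0.18), AI662270 (−0.23) and Taf15 (−0.30). Within the cluster, Slfn5 and Slfn9 at the low end were lower in C57BL/6, and Slfn10-ps and Slfn2 beside each other were higher. Slfn8, between these pairs, and Slfn3, at the high end, did not pass the adjusted p. Slfn10-ps did not pass it in every alternative.

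**Figure D5:**
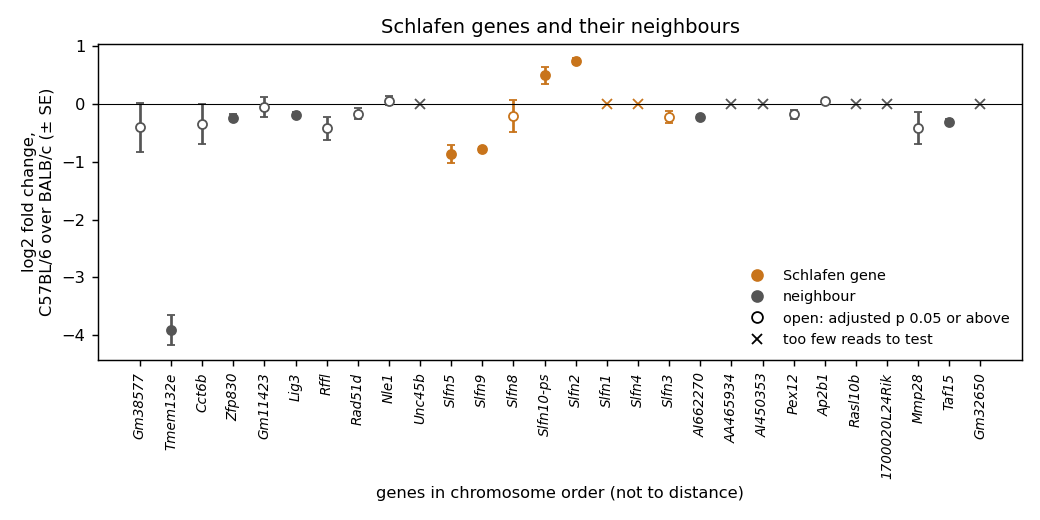
Log2 fold change with SE along chromosome 11 in gene order, not to distance, for the Schlafen genes (orange) and the 10 nearest genes with reads on each side (grey). Open points did not pass an adjusted p of 0.05 and crosses had too few reads to test. Tmem132e lay lowest, at −3.91, and the tested neighbours other than it lay closer to 0 than Slfn2, Slfn5 and Slfn9.

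The genes whose profile over the 6 libraries was most like that of Slfn2 were Klf6, Galns, Def8, Ptpn3 and St8sia4. Likeness was the distance between log2 CPM values centred on each gene's mean, among 9891 genes with at least 100 reads on average. The distances ran from 0.051 for Klf6, a zinc finger transcription factor, to 0.0784 for St8sia4, a sialyltransferase. Their log2 fold changes ran from 0.71 to 0.76, near that of Slfn2, as this measure requires.

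Schlafen genes are known in T cells and in macrophages and other myeloid cells, so markers of these cells were read in the same libraries. Of the 10 mast cell markers, all tested, 5 were higher and 3 lower in C57BL/6 by adjusted p, among them Tpsb2 (2.32), Hdc (1.19) and Mcpt4 (−1.16) past both thresholds. Over all genes tested, 27.0% were higher and 25.9% lower by adjusted p, and 7.73% and 5.54% past both thresholds. The 10 mast cell markers summed to between 28273 and 31313 CPM in BALB/c and between 31354 and 33402 CPM in C57BL/6. Within this sum the mean of Tpsb2 rose from 1031.8 to 5166.5 CPM, while that of Cma1 fell from 9894.8 to 7346.5 CPM. The sum therefore does not measure the amount of mast cell RNA. Of 8 T or NK cell markers, 5 had 0 reads in all libraries, including Cd3e and Cd4, and Ncr1 alone was tested (−0.14, adjusted p = 0.3267). Of 8 neutrophil markers, 6 were at 0 reads, and the list summed to at most 0.186 CPM. The 4 B cell markers summed to at most 0.254 CPM. Some markers of other myeloid cells were higher in C57BL/6, as Slfn2 was. Of 8 macrophage markers 2 were tested and higher (Adgre1 and Cd68), and the list summed to between 0.705 and 1.63 CPM in BALB/c and between 13.3 and 13.9 CPM in C57BL/6, while Csf1r, C1qa, C1qb and C1qc had 0 reads. Of 4 dendritic cell markers, Itgax alone was tested and was higher, and the list rose from between 7.73 and 8.54 CPM to between 37.1 and 38.9 CPM, with Siglech at 0 reads. By adjusted p, against 27.0% and 25.9% of all genes tested, 5 of 8 basophil markers were higher and 1 was lower. Those past both thresholds were Cebpa (6.53), Prss34 (5.86), Ccl9 (5.52) and Mcpt8 (1.12), while Cd200r3, which held most of the summed CPM, was at −0.07 (adjusted p = 0.1537). The list had sums between 405.5 and 417.8 CPM in BALB/c and between 512.3 and 523.4 CPM in C57BL/6. The part of such cells in the Slfn2 difference was not tested.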

How the data were processed

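Total RNA of BMMCs on day 20 was sequenced from 3 BALB/c and 3 C57BL/6 libraries. The authors checked reads with FastQC 0.11.5 and assigned them to transcripts with Salmon 0.8.2. The deposited tables hold an estimated count of reads per transcript, the transcript's length and effective length, and TPM as deposited, which divides estimated counts by effective length and scales each library to 1 total. The paper names Ensembl GRCm39 as the reference, and the tables list RefSeq accessions. The reference genome is that of C57BL/6J, and loss of BALB/c reads at sequence differences was not tested.

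Accessions, without version, were matched to symbols through a RefSeq table of GRCm38.p6, used for names and gene order, and promoter windows came from a RefSeq table of the same assembly. Of 129698 transcripts 106440 matched (82.1%), and the others, with 2.69% to 3.12% of reads, were not used. Sums of estimated counts per gene were rounded to whole numbers. The main test was edgeR 4.0.16 (R 4.3.3, quasi-likelihood, TMM, minimum count 10), with Benjamini-Hochberg adjustment over all genes tested. CPM uses TMM-corrected library sizes, and SE was derived from the fold change and F statistic. The mean biological coefficient of variation was 0.0665, and single genes can vary more, as Slfn8 did. The number of libraries limits precision, and for genes with few reads counting error does too. Genes sharing at least 10% of 31-base words of GENCODE transcripts were also summed. Exact permutation tests used scipy 1.17.1. Scripts were tested on simulated data. Alternatives were DESeq2 1.42.0, length offsets, other normalizations and filters, limma 3.58.1 on TPM (log2, pseudocount 1 or 0.1), other transcript sets and each library left out.

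The members, the gene lists and the tests were chosen with earlier results of these data known, and the 10% limit after the sharing was seen. The genes named are all members, transcripts of members with at least 10 reads in a library, other Schlafen genes, genes of the interferon and tRNA lists past both thresholds (at most 10 of each) and neighbours past them, with Irf9, Irf7 and Isg15, and the 5 genes most like Slfn2. Others were named after their values were seen. Proteins of the family were not analysed here, and a gene that this rule covers is not reported here.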

Additional observations from a re-analysis of the deposited data

How the results depend on the processing

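The direction of Slfn2, Slfn3, Slfn5, Slfn9 and Slfn10-ps held in every alternative that kept each as a gene of its own, and Slfn2 and Slfn9 passed the adjusted p in all of theirs (Slfn2 from 0.55 to 0.80, Slfn9 from −0.96 to −0.75). The median over all genes was −0.152 with plain library size, and in limma −0.15 on log2(TPM + 1) and −0.18 on log2(TPM + 0.1). On log2(TPM + 1) Slfn5, a low gene, was at −0.47. Slfn3 passed under these settings, at −0.37, −0.37 and −0.41, or −0.22, −0.22 and −0.23 relative to those medians. With 1 library left out it ranged from −0.33 to −0.17, passing only without S14. Slfn5 did not pass with curated transcripts alone (−1.39) or with transcripts of the same version alone (−1.39), because S12 then has 0 reads, which left 1 member lower by adjusted p in each. With plain library size Slfn5 reached −1.004, so that 1 member was lower past both thresholds. Without the fold criterion 1 member was higher and 2 were lower. Summing Slfn8 with Slfn9 and Slfn10-ps gave −0.63, past the threshold, because Slfn9 holds most of those reads. That sum is opposite in sign to Slfn10-ps alone (0.50). On its own Slfn8 passed in no alternative, and it lay above 0 without S9 (0.08) and without S14 (0.01). With plain library size 9 genes of the interferon list were higher and 2 lower past both thresholds, as Ifngr2 (0.88) was lost and Igtp (−1.006) was added. For Slfn1 and Slfn4 depth sets the limit, as 0 reads were found. No paired analysis was made, because the labels give neither culture batches nor pairs of libraries.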
